A study of Mus musculus with 14 samples.

Results

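The 36 genes described here serve the unfolded protein response and protein folding in the endoplasmic reticulum (ER). They were chosen by name, as the rows of the 14 deposited gene tables whose Ensembl identifier belongs to a listed symbol, and all 36 were found among the 22598 genes of each table. All 36 also passed the filter on low counts that left 11591 genes for testing. By role they comprise 6 stress sensors and transcription factors, 9 chaperones of the HSP70 and HSP90 type with their partners, 5 lectin chaperones and disulfide isomerases, 5 genes of translocation and signal peptide processing, 7 genes of ER-associated degradation, and 4 targets of the factors ATF4 and CHOP.

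The cells were mouse CD4 T cells of the strain C57BL/6J, which the labels describe as sorted by flow cytometry for CD4 and TCRb from splenocytes and then polarized in culture towards Th2, the helper T cell type of allergic and antiparasite responses. The groups were wild-type cells at day 7 (n = 4), Ago134 knockout cells at day 7 (n = 4), wild-type cells at day 14 (n = 3) and Ago134 knockout cells at day 14 (n = 3), with days as the sample titles give them; another text of the series puts the later time a day further on. Ago134 is read here as the joint knockout of the genes Ago1, Ago3 and Ago4, whose Argonaute products load small RNAs. The sources used here give neither the construct behind the deletion nor the age of the mice. The labels do not say which libraries came from which mouse or culture, so the p-values measure the spread between these libraries, which may be technical.

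As background, the ER folds secreted and membrane proteins, and a surplus of unfolded protein is sensed by IRE1 (encoded by Ern1), PERK (Eif2ak3) and ATF6. IRE1 splices the Xbp1 messenger RNA into the form that encodes an active factor, PERK slows translation and thereby favours ATF4 and its target CHOP (Ddit3), and ATF6 is cut to release a factor that raises chaperone genes. The response is known for its strength in plasma cells, and in T cells it accompanies activation and cytokine secretion. The deposited values count reads per gene, so spliced and unspliced Xbp1 are not separated here.

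Each library held 23326248 to 35803197 counts in genes, and 12534 to 13241 genes had at least 1 read. Levels are given as CPM, the counts of a gene relative to the scaled total of its library. Differences are log2 fold changes ± standard error (SE) from edgeR's quasi-likelihood test, fitted to all 14 libraries, and a gene is called when its p, adjusted over the 11591 genes by Benjamini-Hochberg, is under 0.05. Ago1 was at 3.68 to 5.35 CPM in wild type at day 7 and at 2.07 to 3.72 at day 14, with 0 reads in 4 of 4 knockout libraries at day 7 and at most 2 reads in a knockout library at day 14. Ago3 reads remained in the knockout (1.21 to 2.16 CPM against 2.04 to 4.43 in wild type), and Ago4 reads were more abundant there (2.38 to 4.76 CPM against 0.358 to 2.81); which parts of these genes were deleted is not given, so the last 2 do not check the labels. T cell genes such as Cd3e (185 to 396 CPM) and Cd4 (145 to 457 CPM) were present in every library. The summed level of 10 markers of B and plasma cells, which run the same response strongly, was 3.27 to 7.45 CPM. Tnfrsf17 was at 0 in 14 of 14 libraries, Ms4a1 in 12 and Mzb1 in 8, while Pou2af1, Cd79b and Sdc1 had reads in every library. From day 7 to day 14 mean Sdc1 went from 0.214 to 1.92 CPM in wild type and from 0.179 to 0.937 CPM in the knockout. It was called higher in both genotypes, and 2 other markers were called lower in each. The part of these cells in the changes of the ER genes was not tested. Wild-type library 3 of day 14 and knockout library 4 of day 7 stood apart from the rest of their groups in other gene lists. Their values are given beside the results they touch.

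Over the week from day 7 to day 14, Xbp1 and 5 further members rose in both genotypes, while most members did not pass the test. In wild type 8 of the 36 genes were higher at day 14 and 0 lower, where 13.2% and 7.33% of all tested genes were called higher and lower. In the knockout 7 were higher and 2 lower, beside 10.5% and 4.92% of all genes. The median log2 fold change over the 36 genes was 0.41 in wild type and 0.51 in the knockout, against 0.00 and 0.02 over all tested genes. A total of 6 genes were called higher in both genotypes: Xbp1, Sdf2l1, Pdia6, Herpud1, Asns and Chac1. The members called in 1 genotype were Atf4 and Ddit3 (higher, wild type), Edem1 (higher, knockout), and Trib3 and Ppp1r15a (lower, knockout). None of the 36 differed between genotypes in this change over time: the interaction of genotype and day called 0 members, with 3 at an unadjusted p under 0.05 (Xbp1, Trib3 and Ppp1r15a), beside 0.0604% of all genes called higher and 0.0259% lower. In bulk RNA, fewer cells of a type and less RNA per cell cannot be told apart.

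**Figure D1:**
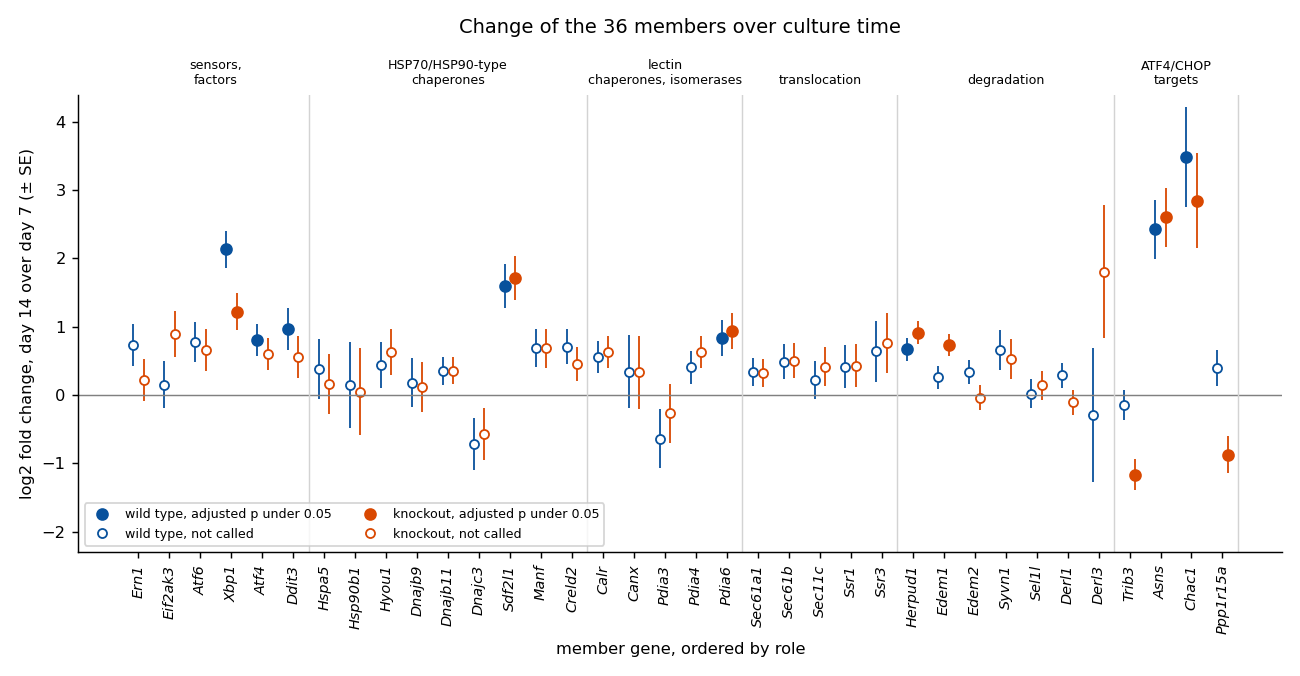
Log2 fold change from day 7 to day 14 (vertical axis, ± SE) for each of the 36 genes (horizontal axis, ordered by role), in wild type (blue, 3 against 4 libraries) and knockout (orange, 3 against 4 libraries). Filled points passed the test: Asns and Chac1 lie highest in both genotypes, Derl3, on few reads and unfilled, lies above Sdf2l1 and Xbp1 in the knockout, and Trib3 and Ppp1r15a are the filled points under 0.

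Among the sensors and transcription factors, Xbp1 gave the smallest adjusted p of all members in wild type. Xbp1 (chr11:5520659-5525893, GRCm38) encodes the factor that IRE1 activates, which raises genes of ER expansion and secretion. Its level was 88.8, 97.5, 127 and 124 CPM in wild type at day 7 and 364, 428 and 645 CPM at day 14. In the knockout Xbp1 stood at 164, 124, 156 and 204 CPM at day 7 and at 230.4, 404 and 497 CPM at day 14. Day 14 lay above day 7 without overlap in each genotype. The increase was 2.13 ± 0.27 in wild type (4.39-fold, adjusted p = 0.000115) and 1.22 ± 0.27 in the knockout (2.33-fold, adjusted p = 0.00664). The wild-type increase exceeded that of the knockout by 0.91 ± 0.38, which did not pass the test of the interaction (adjusted p = 0.571).

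Atf4 encodes the factor that PERK and the other kinases of the integrated stress response favour. It was at 150.5, 172, 232 and 236 CPM in wild type at day 7 and at 339, 379.7 and 318 CPM at day 14. Knockout Atf4 values were 275, 234, 239 and 445 CPM at day 7 and 467, 388 and 509 CPM at day 14. The wild-type days did not overlap and Atf4 rose by 0.80 ± 0.23 (adjusted p = 0.0252), a call lost without wild-type library 1 or 2 of either day (adjusted p up to 0.0784). In the knockout, library 4 of day 7 reached the range of day 14, and the difference of 0.61 ± 0.23 was not called (adjusted p = 0.101).

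Ddit3 encodes CHOP, the factor of prolonged ER stress. Wild-type Ddit3 levels were 33.4, 39.6, 46.8 and 49.7 CPM at day 7 and 61.7, 103 and 83.5 CPM at day 14. They were 70.1, 53.4, 54.0 and 124 CPM in the knockout at day 7 and 136, 77.2 and 119 CPM at day 14. Again the wild-type days did not overlap, with a rise of 0.96 ± 0.31 (adjusted p = 0.0381), and knockout library 4 of day 7 lay within the range of day 14 (0.55 ± 0.31, adjusted p = 0.277). The wild-type Ddit3 call was lost in 6 of 22 alternatives, namely with the GC and length offset and without any 1 of the 4 wild-type libraries of day 7 or library 2 of day 14 (0.53 at the lowest, adjusted p up to 0.138). Exons of Ddit3 overlap other annotated genes, Mars on the opposite strand among them, and no source says whether counting used strand, so its counts are uncertain. Exons of Pdia6 and Ppp1r15a, called over time below, also overlap a gene on the opposite strand (Atp6v1c2 and Tulp2). Those of Eif2ak3, Hsp90b1, Dnajb9, Manf, Pdia3, Sec61a1 and Syvn1 do too, so the same limit holds for these members. Without knockout library 4 of day 7, both Atf4 and Ddit3 were called higher in the knockout over time. That library had the highest summed level of 15 interferon response genes (5740 CPM, against 764 to 1990 in the other 3 of its group), the part of which in these results was not tested.

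The 3 sensors themselves were not called in any of the 5 comparisons by edgeR's test on all libraries without an offset. With the offset for coding GC content and length described later, Ern1 and Atf6 were called over time in wild type and Eif2ak3 in the knockout, all higher at day 14, and DESeq2 called Ern1 lower in the knockout at day 14. Ern1, which encodes IRE1, was the scarcest of them, at 7.63, 7.45, 7.15 and 6.27 CPM in wild type at day 7 and 6.20, 4.49, 2.76 and 4.38 CPM in the knockout. At day 14 Ern1 stood at 10.2, 16.4 and 8.84 CPM in wild type and at 4.61, 6.79 and 4.19 CPM in the knockout. The knockout lay under wild type without overlap at both days, by 0.68 ± 0.29 at day 7 (adjusted p = 0.185) and 1.19 ± 0.34 at day 14 (adjusted p = 0.0789). Eif2ak3, which encodes PERK, was at 215, 241, 194 and 199 CPM in wild type and at 151, 133, 87.6 and 56.5 CPM in the knockout at day 7. Its day 14 values, 268, 250.5 and 189.9 CPM in wild type and 259, 240.1 and 97.3 CPM in the knockout, overlapped between genotypes. Atf6 was at 14.0, 14.7, 11.8 and 14.2 CPM in wild type and at 10.9, 11.7, 7.74 and 7.75 CPM in the knockout at day 7. For Atf6 at day 14 the values were 16.3, 19.0 and 35.0 CPM in wild type and 11.7, 21.1 and 12.4 CPM in the knockout. The 3 sensors thus shared a lower knockout level at day 7 with no overlap, and none of these differences passed the test (adjusted p = 0.154 for Eif2ak3 and 0.27 for Atf6). Of all tested genes, 12.9% were lower in the knockout without overlap at day 7 and 5.25% at day 14. The genotype differences of all genes also went with coding length at both days, as described later.

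**Figure D2:**
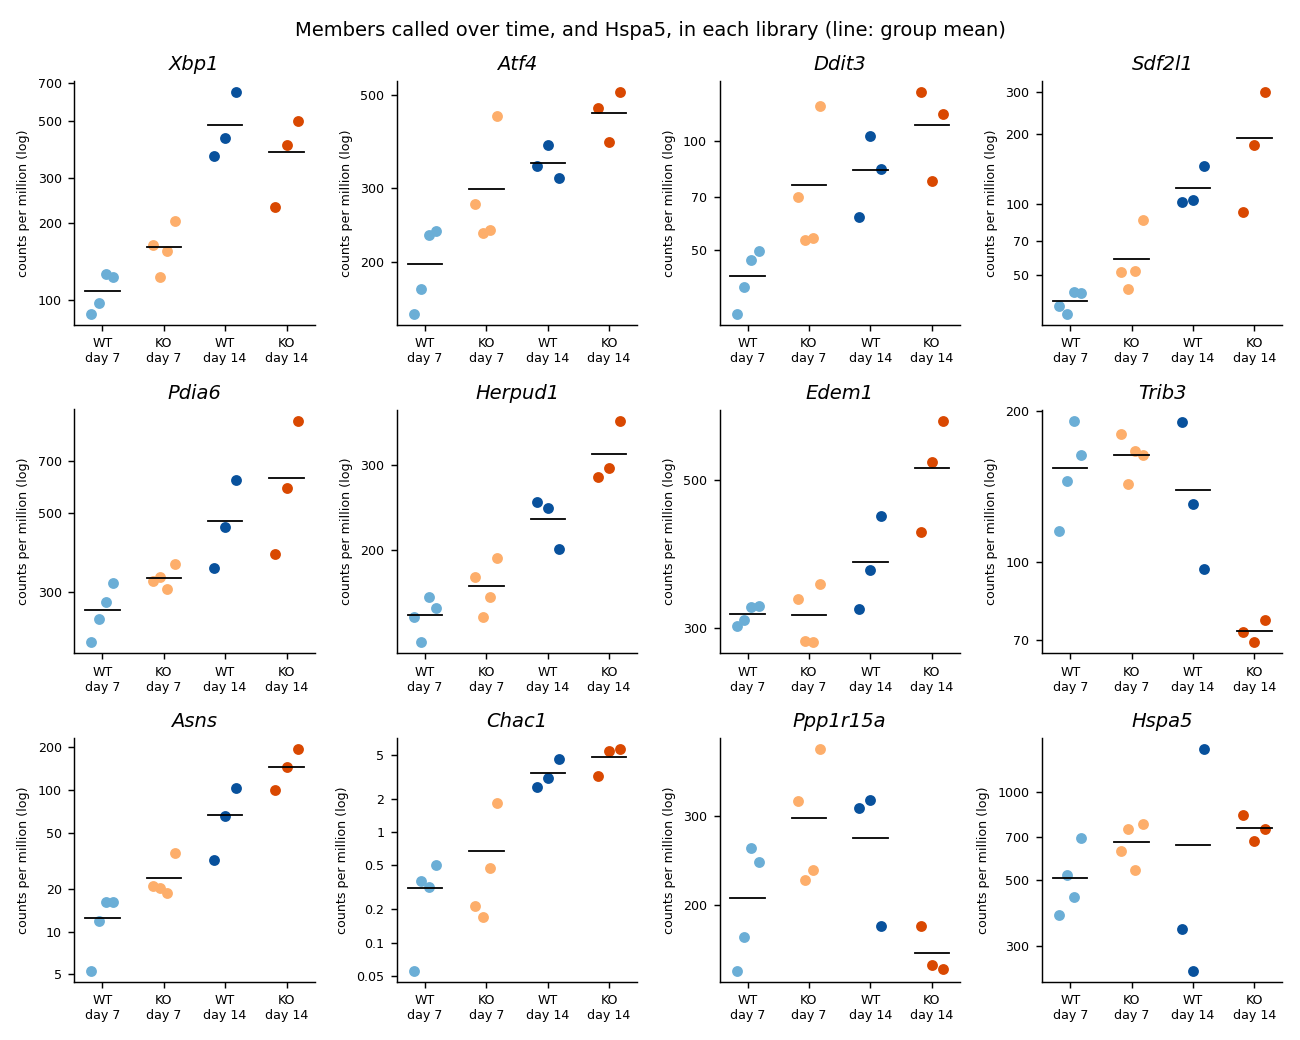
Level in CPM (vertical axis, log scale, a scale of its own in each panel) in every library (points) of the 4 groups (horizontal axis; WT, wild type; KO, knockout), with the group mean as a line, for the 11 genes called over time and for Hspa5. Xbp1, Asns and Chac1 are higher at day 14 in both genotypes, Trib3 is lowest in the knockout at day 14, and 1 of the 3 wild-type Hspa5 values at day 14 (1395) lies above all others.

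Of the 9 chaperones of the HSP70 and HSP90 type and their partners, Sdf2l1 was called over time in both genotypes. Without an offset, edgeR's test on all libraries called no other member of this role in either. Sdf2l1 (chr16:17130138-17132383) encodes a partner of the HSP70-type chaperone BiP. It was at 37.0, 34.2, 42.1 and 41.8 CPM in wild type at day 7 and at 102, 104 and 145 CPM at day 14. Knockout libraries gave 51.2, 43.7, 52.2 and 85.6 CPM at day 7 and 92.7, 179 and 300.3 CPM at day 14. Day 14 lay above day 7 without overlap in both genotypes, by 1.60 ± 0.33 in wild type (3.02-fold, adjusted p = 0.00322) and 1.71 ± 0.33 in the knockout (3.28-fold, adjusted p = 0.00272).

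Hspa5 (chr2:34771970-34777547) encodes BiP itself, the usual readout of the response, and per length it was the most abundant gene of its role, with a mean of 138 RPKM, reads per kilobase of coding length scaled to library size. It did not follow Xbp1. Hspa5 stood at 382, 523, 439 and 695 CPM in wild type at day 7 and at 631, 747, 544 and 779 CPM in the knockout. At day 14 the 3 wild-type libraries gave 342, 247 and 1395 CPM and the knockout libraries 835, 680.1 and 749 CPM. The third wild-type library was thus 4.73 times the mean of the other 2, and the change over time was 0.38 ± 0.44 in wild type (adjusted p = 0.593) and 0.16 ± 0.44 in the knockout (adjusted p = 0.868). Without that library the sign in wild type turned and Hspa5 was called lower at day 14, by 0.79 ± 0.24 (adjusted p = 0.0267). The remaining members of this role had log2 changes over time of -0.71 (Dnajc3, which encodes a co-chaperone and inhibitor of PERK) to 0.71 (Creld2) in wild type. None was called by edgeR's test on all libraries without an offset. With the GC and length offset, Dnajb11 and Manf were called higher and Dnajc3 lower in wild type. The same offset called Manf higher and Dnajc3 lower in the knockout. Without knockout library 4 of day 7, Creld2 was called higher in wild type. Dnajb9, which encodes a further co-chaperone, was the scarcest at 1.57 to 4.54 CPM. Of the 50-base stretches of its coding sequence, 22.7% also occur in another gene. That share was 26.3% for Derl1, 12.7% for Hsp90b1, 10.4% for Eif2ak3 and 7.38% for Manf.

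Among lectin chaperones and disulfide isomerases, Pdia6 was the called gene in both genotypes. Pdia6 (chr12:17266545-17284770), which makes and breaks disulfide bonds in folding proteins, was at 216, 252, 280.5 and 318 CPM in wild type at day 7 and 349, 455 and 620.4 CPM at day 14. Its knockout values were 321, 329.6, 304 and 358 CPM at day 7 and 384, 589.8 and 913 CPM at day 14. The days did not overlap in either genotype, and the rises were 0.83 ± 0.26 in wild type (adjusted p = 0.0335) and 0.94 ± 0.26 in the knockout (adjusted p = 0.0230). The wild-type call was lost in 7 of 22 alternatives, without wild-type library 1, 2 or 3 of day 7 or 2 or 3 of day 14, without both outlying libraries, and with the run-set term (adjusted p up to 0.107). The knockout call was lost in 6, without knockout library 1, 2 or 3 of day 7 or 2 or 3 of day 14 and with the run-set term (adjusted p up to 0.180). The most abundant member per length of all 36 was Pdia3 (mean 286 RPKM), the isomerase that works with the lectin chaperones calreticulin and calnexin. Wild-type Pdia3 was at 1005, 1131, 945 and 1245 CPM at day 7 and at 404, 244 and 1438 CPM at day 14. In the knockout it was at 1015, 1449, 1295 and 1208 CPM at day 7 and at 1347, 752 and 1003 CPM at day 14. The first 2 wild-type libraries of day 14 were the lowest of all 14 and the third the second highest, and edgeR's test on all libraries called Pdia3 only with the GC and length offset, lower at day 14 in wild type. Calr, Canx and Pdia4 had log2 changes over time of 0.34 to 0.56 in wild type and 0.33 to 0.63 in the knockout. None of them was called by edgeR's test on all libraries without an offset. With the offset Calr and Pdia4 were called higher in wild type and Pdia4 in the knockout.

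The 5 genes of translocation and signal peptide processing, which carry new proteins into the ER, had 0 calls in the 5 comparisons by edgeR's test on all libraries without an offset. DESeq2 called Sec61b higher in the knockout at day 7, and the GC and length offset called Ssr3 higher in the knockout over time. Sec61a1, which encodes the pore of the translocation channel, was the most abundant of them per length (mean 112 RPKM). It was at 376, 358, 407 and 375 CPM in wild type and 382, 322, 280.1 and 239.7 CPM in the knockout at day 7. At day 14 Sec61a1 was at 529, 523 and 381 CPM in wild type and at 274, 456 and 415 CPM in the knockout, so that the genotypes overlapped at both days. All 5 had positive log2 changes over time, of 0.22 to 0.64 in wild type and 0.32 to 0.76 in the knockout, with adjusted p of 0.206 or more. Sec61b, another subunit of the channel, is the least certain member of this role, as 51.6% of its 50-base coding stretches occur in 3 other annotated genes.

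In ER-associated degradation, Herpud1 was called over time in both genotypes and Edem1 in the knockout. Herpud1 (chr8:94386438-94395377) encodes a membrane protein of the degradation complex. Its level was 145, 128, 159.6 and 151 CPM in wild type at day 7 and 251, 244 and 201 CPM at day 14. Knockout Herpud1 was at 176, 145, 159.9 and 192 CPM at day 7 and at 283, 296 and 371 CPM at day 14. The days did not overlap, and the rises of 0.67 ± 0.16 in wild type (1.59-fold, adjusted p = 0.00961) and 0.91 ± 0.16 in the knockout (1.88-fold, adjusted p = 0.00169) were small but even across libraries.

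Edem1 (chr6:108828641-108859356), which helps to draw misfolded glycoproteins out of the folding cycle, was at 303, 308, 323 and 325 CPM in wild type and 332, 287, 286 and 349.7 CPM in the knockout at day 7. It was at 321, 368 and 442 CPM in wild type and at 418, 534 and 615 CPM in the knockout at day 14. Edem1 rose in the knockout by 0.73 ± 0.17 (1.66-fold, adjusted p = 0.00747) without overlap, and was not called in wild type (0.26 ± 0.17, adjusted p = 0.307). The difference between these changes, 0.48 ± 0.24, did not pass (adjusted p = 0.657). Derl3, whose product is typical of secretory cells, was close to absent, at 0 to 21 reads in a library. The ubiquitin ligase gene Syvn1, its partner Sel1l, Edem2 and Derl1 had log2 changes over time of 0.02 to 0.66 in wild type and -0.10 to 0.52 in the knockout. They were not called by edgeR's test on all libraries without an offset. Without wild-type library 3 of day 14, Syvn1 was called higher in wild type.

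Of the 4 targets of ATF4 and CHOP, Asns and Chac1 rose over time in both genotypes, and Trib3 and Ppp1r15a fell in the knockout. In wild type Trib3 and Ppp1r15a were not called by edgeR's test on all libraries without an offset. The GC and length offset called Trib3 lower there. Asns (chr6:7675169-7693254), which encodes asparagine synthetase, was at 5.29, 11.9, 16.3 and 16.3 CPM in wild type at day 7 and 31.9, 65.9 and 102 CPM at day 14. In the knockout Asns was at 20.9, 20.3, 18.7 and 36.1 CPM at day 7 and 99.1, 144 and 194 CPM at day 14. All day 14 values exceeded those of day 7 within wild type and within the knockout, by 2.42 ± 0.43 (5.37-fold, adjusted p = 0.00126) and 2.60 ± 0.43 (6.08-fold, adjusted p = 0.00110).

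Chac1 (chr2:119351229-119354381) encodes an enzyme that degrades glutathione and is a marker of ATF4 and CHOP activity. Wild-type Chac1 was at 0.0557, 0.358, 0.319 and 0.501 CPM at day 7 and at 2.56, 3.07 and 4.57 CPM at day 14. Knockout Chac1 was at 0.215, 0.169, 0.470 and 1.81 CPM at day 7 and at 3.22, 5.37 and 5.64 CPM at day 14. These rest on 2 to 41 reads a library at day 7 and 69 to 187 at day 14. The rise was the largest of the 36 in each genotype, 3.48 ± 0.73 in wild type (11.2-fold, adjusted p = 0.00381) and 2.85 ± 0.70 in the knockout (7.20-fold, adjusted p = 0.0126).

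The other pair fell in the knockout. Trib3 (chr2:152337422-152344032), which encodes a pseudokinase that restrains ATF4 and AKT, was at 115, 145, 192 and 164 CPM in wild type and 180.2, 143, 167 and 163 CPM in the knockout at day 7. At day 14 Trib3 was at 191, 131 and 97.1 CPM in wild type and at 72.6, 69.2 and 76.5 CPM in the knockout. The 3 knockout values of day 14 were the lowest of the 14 libraries. Trib3 fell by 1.17 ± 0.23 in the knockout over time (adjusted p = 0.00323) and differed by -0.14 ± 0.22 in wild type (adjusted p = 0.702).

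Ppp1r15a (chr7:45522916-45526268) encodes GADD34, which reverses the translation block set by PERK. It was at 149, 174, 259 and 244 CPM in wild type and at 320.4, 224, 235 and 405 CPM in the knockout at day 7. Its day 14 values were 310.2, 322 and 182 CPM in wild type and 182, 153 and 150.4 CPM in the knockout. Ppp1r15a fell by 0.87 ± 0.27 in the knockout over time, without overlap (adjusted p = 0.0421). The call was lost in 8 of 22 alternatives, among them leaving out knockout library 4 of day 7 (-0.71, adjusted p = 0.0824), library 1 of day 7, libraries 2 or 3 of day 14, or wild-type libraries 2 or 4 of day 7, and with the replicate block (-0.72, adjusted p = 0.107) and the run-set term (-0.37, adjusted p = 0.605). By comparison the wild-type difference was 0.40 ± 0.26 (adjusted p = 0.327). The differences between genotypes in these changes were -1.02 ± 0.32 for Trib3 (adjusted p = 0.295) and -1.27 ± 0.38 for Ppp1r15a (adjusted p = 0.276). Neither passed.

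The promoters of the members, whatever their change, were searched for 3 known elements on both strands. The window was the 300 bases from 250 before to 50 after each RefSeq start (GRCm38.p6), available for 30 of the 36 genes. The C/EBP-ATF element, the site class of ATF4, was searched as TGATGNAA and was found in 4 of the 30 (13.3%), beside 3.97% of 32851 promoters and 2.77% of 9071 tested genes. They were Herpud1, Asns and Chac1, all called higher over time in both genotypes, and Trib3, called lower in the knockout, whose match lies past the start. The first 3 sites are shown because their genes moved together. Asns, Chac1 and Trib3 were picked as members for their role as targets of ATF4 and CHOP, so the share describes the choice of genes. Of the 4 genes with the element, 3 were called higher over time in each genotype. Of the 26 without it, 5 were called higher in wild type and 4 in the knockout. Capitals are the fixed letters of the element, on the strand of the gene, so that a match on the other strand reads as its reverse complement. The Asns site lies inside the gene as annotated in GENCODE vM21 and is shown with short flanks.
Asns, chr6:7693214-7693243, minus strand: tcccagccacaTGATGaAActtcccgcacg
Chac1, chr2:119351029-119351076, plus strand: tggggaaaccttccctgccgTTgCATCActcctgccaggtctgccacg
Herpud1, chr8:94386297-94386344, plus strand: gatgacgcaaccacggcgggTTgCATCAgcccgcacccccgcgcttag

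The ER stress response element, the site class of ATF6 with the factor NF-Y, was searched as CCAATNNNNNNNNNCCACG. It was found in 9 of the 30 genes (30%), beside 0.119% of all promoters and 0.143% of tested genes (13, of which the 4 that are no members are Acacb, Adcy3, Alg12 and Pan2). Genes with this element include the classical chaperone targets Hspa5, Hsp90b1, Dnajc3, Calr, Canx and Pdia6, and also Creld2. Syvn1 and Derl3 of ER-associated degradation hold it as well. All were picked as members for their roles in these pathways, so the share describes the choice of genes. Over time 1 of these 9 was called higher in wild type (Pdia6) and 1 in the knockout (Pdia6), against 7 and 6 of the 21 genes without the element. Their median log2 changes were 0.38 and 0.45, against 0.41 and 0.55 for the 21. The unfolded protein response element, searched as TGACGTGG, had no match in the 30 windows and one in 0.676% of all promoters. A match is a description of letters and does not show that a factor binds there. The sites below belong to genes whose values are given here: Hspa5 and Canx, which were high in wild-type library 3 of day 14, and Pdia6, which rose in both genotypes. The Hspa5 site lies inside the gene as annotated in vM21.
Hspa5, chr2:34772020-34772048, plus strand: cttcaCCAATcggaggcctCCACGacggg
Canx, chr11:50325780-50325838, minus strand: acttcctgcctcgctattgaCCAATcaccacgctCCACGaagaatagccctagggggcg
Pdia6, chr12:17266471-17266529, plus strand: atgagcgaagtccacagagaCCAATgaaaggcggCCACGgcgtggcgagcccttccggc

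The remaining genes of these pathways, a list of 172 of which 155 were tested, moved in both directions over time, with 57 negative log2 changes in wild type and 45 in the knockout. In wild type 33 of 155 were called higher and 2 lower, beside 13.2% and 7.33% of all tested genes. In the knockout 25 were called higher and 0 lower (1 at an unadjusted p under 0.05), beside 10.5% and 4.92%. Their median log2 changes were 0.24 and 0.19. The integrated stress response list, which holds further ATF4 targets, held the most calls, 13 of its 33 tested genes higher in wild type and 16 in the knockout. Stc2, a secreted glycoprotein gene of this response, rose by 3.48 ± 0.48 in wild type (adjusted p = 0.000225) and 3.75 ± 0.49 in the knockout (adjusted p = 0.000211). Aars, which encodes alanyl-tRNA synthetase, rose by 1.29 ± 0.22 and 1.56 ± 0.22 (adjusted p = 0.000918 and 0.000380). Ddit4, an inhibitor of growth signalling, and the amino acid enzyme gene Gpt2 rose by 2.07 ± 0.32 and 1.42 ± 0.27 in wild type. Both were also called in the knockout (1.444 ± 0.315 and 1.33 ± 0.27). Psat1 of serine synthesis and Mthfd2 of mitochondrial folate metabolism rose by 2.57 ± 0.39 and 1.69 ± 0.27 in the knockout. These 2 genes were called in wild type as well (1.265 ± 0.377 and 1.25 ± 0.27).

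Of 29 other ER folding genes, 9 were called higher in wild type and 5 in the knockout, where 13.2% and 10.5% of all genes were. Prdx4, an ER peroxidase, rose by 1.57 ± 0.40 in wild type (adjusted p = 0.0128) and 1.46 ± 0.40 in the knockout (adjusted p = 0.0230). Mogs, which trims the sugars of new glycoproteins, rose by 0.87 ± 0.25 and 0.81 ± 0.25. Sil1, the exchange factor of BiP, rose by 1.01 ± 0.22 and 0.71 ± 0.22. Lman2, a cargo lectin, was called in wild type (0.73 ± 0.20), and Pdia5 (3.60 ± 1.07) in the knockout, from a mean of 0.188 CPM at day 7.

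Of 17 other response regulators, 5 were called higher in wild type and 1 in the knockout. Wfs1, an ER membrane gene, rose in both, by 1.93 ± 0.28 (adjusted p = 0.000312) and 1.53 ± 0.29 (adjusted p = 0.00222). In wild type Creb3l2, a factor of secretory cells (1.12 ± 0.22), Cebpb, a partner of CHOP (1.06 ± 0.27), and the death effector Bax (0.64 ± 0.19) were called as well. Among 21 other degradation genes Os9 was higher in wild type (0.50 ± 0.15) and Herpud2 and Vcp lower (-0.58 ± 0.19 and -0.73 ± 0.25), with 0 calls in the knockout. Of 29 other genes of translocation and glycosylation, Krtcap2 and Sec61g were higher in wild type and Stt3b and Rpn1 in the knockout. Of 26 genes of vesicle transport 3 were higher in wild type and 1, Tmed3, in the knockout. The shares of all genes called higher were 13.2% in wild type and 10.5% in the knockout. The counts called higher for degradation, translocation, glycosylation and vesicle transport lie under them, as does that for regulators in the knockout. The 2 degradation genes called lower in wild type stand beside 7.33% of all genes. These counts are no result about the lists.

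Beside these changes, genes of the G2 and M phases of the cell cycle were higher at day 14, 11 of 20 in wild type and 18 of 20 in the knockout. Their summed level was 87.7 to 98.7 CPM in wild type at day 7, 119, 134 and 911 CPM in wild type at day 14, 91.8 to 218 CPM in the knockout at day 7 and 1060 to 2180 CPM in the knockout at day 14. The part of cell division in the changes of the ER genes was not tested. The 13 markers of myeloid and dendritic cells summed to 1.17 to 7.57 CPM at day 7 and 8.59 to 30.1 CPM at day 14, chiefly Adgre1. Itgam, Itgax and Flt3 were at 0 in all 14 libraries. From day 7 to day 14 mean Cd68 went from 0.379 to 2.6 CPM in wild type and from 0.974 to 3.34 CPM in the knockout. Mean Cd14 went from 0.0578 to 1.5 CPM and from 0.5 to 0.259 CPM. The part of these myeloid and dendritic markers was not tested either. The 6 markers of CD8 T and NK cells summed to 16.9 to 86.2 CPM at day 7 and 321 to 12300 CPM at day 14, nearly all of it Gzmb, which activated T cells can also express. Gzmb and Eomes were called higher at day 14 in both genotypes, while Cd8a was at most 0.302 CPM and Ncr1 at 0 in all 14 libraries. Cd8b1 had reads in every library, at 6.32 to 10.1 CPM in wild type and 10.4 to 20.9 CPM in the knockout, and was not called between genotypes. The 7 markers of mast cells and basophils summed to 34.2 to 86.7 CPM at day 7, 3.81 to 8.03 CPM in wild type at day 14 and 23.4 to 132 CPM in the knockout at day 14. Of them Cpa3 and Kit were called higher in the knockout at day 14, with Ms4a2 and Mcpt8 at 0 in all 14 libraries. The part of both lists in the changes of the ER genes was not tested.

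The run identifiers of the deposited tables fall into 2 sets, and in the knockout the set and the day cannot be told apart. With the set as a term 1 gene, Asns, was called in the knockout over time (beside 2.27% of genes higher and 0.923% lower), against 7 in wild type. Both sets hold wild-type libraries of both days. Within each set the 8 genes called in wild type were higher at day 14, as log2 ratios of means. The ratios were 0.69 to 2.97 in one (1 library against 3) and 0.64 to 6.00 in the other (2 against 1). For these 8 genes the wild-type days did not overlap, so that direction was fixed in advance and does not test the set. An offset for coding GC content and length raised the calls to 16 in wild type (13 higher, and Dnajc3, Pdia3 and Trib3 lower; 14.5% and 18.8% of all genes) and 14 in the knockout (11 higher, and Dnajc3, Trib3 and Ppp1r15a lower; 12.2% and 16.8%). It also moved the median of all genes to -0.13 and -0.15, and that of the 36 genes to 0.38 and 0.32.

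Between genotypes, 0 of the 36 genes were called at day 7 and 0 at day 14. At day 7, 8 higher and 3 lower were at an unadjusted p under 0.05 and DESeq2 called 1 (Sec61b), and 0.0518% and 0.0431% of all genes were called higher and lower in the knockout. At day 14, 5 higher and 3 lower were at an unadjusted p under 0.05 and DESeq2 called 2 (Ern1 and Trib3, both lower), and 0.845% and 0.578% of all genes were called. The median log2 difference of the 36 genes was 0.22 at day 7 and 0.24 at day 14, against -0.01 and 0.01 over all genes. Within these totals the genotypes did not overlap in 7 genes higher and 6 lower in the knockout at day 7, beside 9.27% and 12.9% of all genes, and in 3 higher and 3 lower at day 14, beside 9.71% and 5.25%.

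The 13 genes without overlap at day 7 divided by the length of their coding sequence. The 7 that were higher in the knockout, Ddit3, Sdf2l1, Manf, Sec61b, Sec11c, Ssr1 and Asns, have coding lengths of 421 to 1683 bases, and the 6 that were lower, Ern1, Eif2ak3, Atf6, Hyou1, Syvn1 and Sel1l, of 1836 to 3342 bases. All tested genes showed the same trend: the median log2 difference was 0.37 for coding lengths under 1000 bases, -0.03 for 1000 to under 2000 and -0.53 for 2000 and over. An offset was fitted per library to GC content and length of the coding sequence together, so that medians near 0 follow from the fit. With this offset these medians were 0.02, 0.00 and -0.03. The difference for Eif2ak3 then went from -0.99 ± 0.32 to -0.45 ± 0.24, for Ern1 from -0.68 ± 0.29 to -0.16 ± 0.22, for Ddit3 from 0.83 ± 0.29 to 0.38 ± 0.24 and for Sec61b from 0.72 ± 0.24 to 0.25 ± 0.18. Asns kept a difference of 1.01 ± 0.41, from 0.95 ± 0.40 (adjusted p = 0.238 with the offset). Among the other genes that were lower, Atf6 went from -0.52 ± 0.28 to -0.35 ± 0.19, Hyou1 from -0.62 ± 0.32 to -0.08 ± 0.20, Syvn1 from -0.51 ± 0.27 to -0.31 ± 0.17 and Sel1l from -0.45 ± 0.20 to -0.13 ± 0.12. All 6 kept a negative sign with a smaller size. At day 14 the medians of all tested genes in the same length classes were 0.31, 0.01 and -0.39 without the offset. They were -0.012, -0.025 and -0.071 with it. Without the offset, 0 of the 5 members of 2000 bases and over had a positive genotype difference at day 14.

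**Figure D3:**
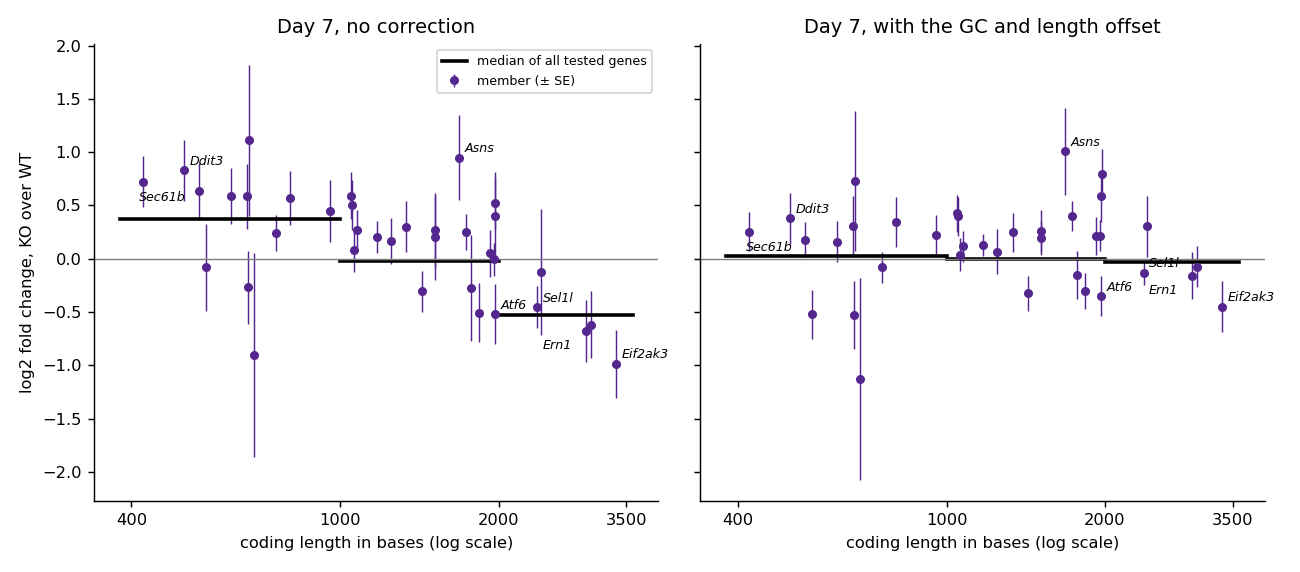
Log2 fold change of knockout over wild type at day 7 (vertical axis; points, ± SE) against coding length in bases (horizontal axis, log scale) for the 36 genes, without a correction (left) and with the GC and length offset (right), with the median of all tested genes in 3 length classes as black lines. On the left the medians step from 0.37 to -0.53 and the points follow them. On the right the medians lie near 0, which follows from the fit of the offset.

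At day 14 the genotype comparison depended most on 1 library, wild-type library 3. Leaving out knockout library 2 of day 14 called 2 members lower, beside 425 lower over all genes. Without knockout library 3 of day 14, 0 members and 42 genes were called. Wild-type library 3 was the highest of its group in 22 of the 36 genes and the lowest in 13. Canx, which encodes calnexin, was at 96.9, 29.9 and 337 CPM in the 3 wild-type libraries. Hsp90b1, the HSP90-type chaperone of the ER, was at 139, 28.6 and 505 CPM. Ssr3, a subunit of the translocon-associated complex, was at 9.26, 7.18 and 34 CPM. A total of 8 members were over 2 times the mean of the other 2 libraries (22.2%), beside 25.5% of all tested genes, so a difference of this size was no more frequent among the 36. The same library held a summed 911 CPM of G2 and M phase genes against 119 and 134.

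Without wild-type library 3, which leaves 2 wild-type libraries, 12 of the 36 genes were called between genotypes at day 14. Of these 8 were higher and 4 lower in the knockout, where 12.6% and 9.89% of all genes were called. The higher ones were Hspa5 (1.36 ± 0.26, adjusted p = 0.00541), Pdia3 (1.67 ± 0.28, adjusted p = 0.00278), Pdia4, Sec11c, Ssr1, Ssr3, Edem1 and Asns (1.58 ± 0.49, adjusted p = 0.0364). The lower ones were Ern1 (-1.36 ± 0.34, adjusted p = 0.0157), Syvn1, Trib3 (-1.15 ± 0.22, adjusted p = 0.00509) and Ppp1r15a (-0.97 ± 0.27, adjusted p = 0.0255). By role, 1 of the 9 chaperones, 2 of the 5 lectin chaperones and isomerases and 3 of the 5 translocation genes were among the higher ones. In the same fit the change over time differed between genotypes for Pdia3, Trib3 and Ppp1r15a (1 higher, 2 lower; 2.31% and 0.919% of all genes). Wild type over time then had 12 calls, 9 higher and 3 lower (14.4% and 15.7% of all genes), the lower ones being Hspa5, Dnajc3 (-1.32 ± 0.36) and Pdia3 (-1.74 ± 0.27). Of the 8 genes called with all libraries, 7 were among the 9.

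**Figure D4:**
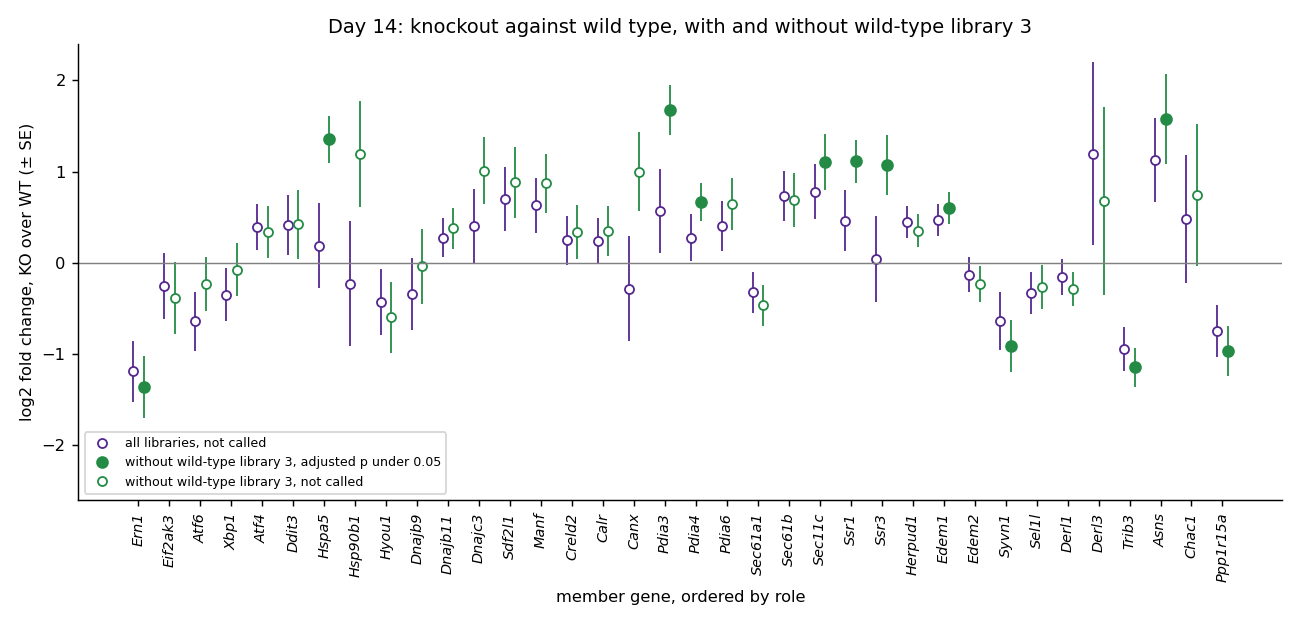
Log2 fold change of knockout over wild type at day 14 (vertical axis, ± SE) for the 36 genes (horizontal axis, ordered by role), with all libraries (purple) and without wild-type library 3 (green); filled points passed the test. With all libraries no point is filled, and without library 3 Hspa5, Pdia3, Ssr1, Ssr3, Sec11c and Asns are filled above 1 and Ern1 and Trib3 under -1.

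**Figure D5:**
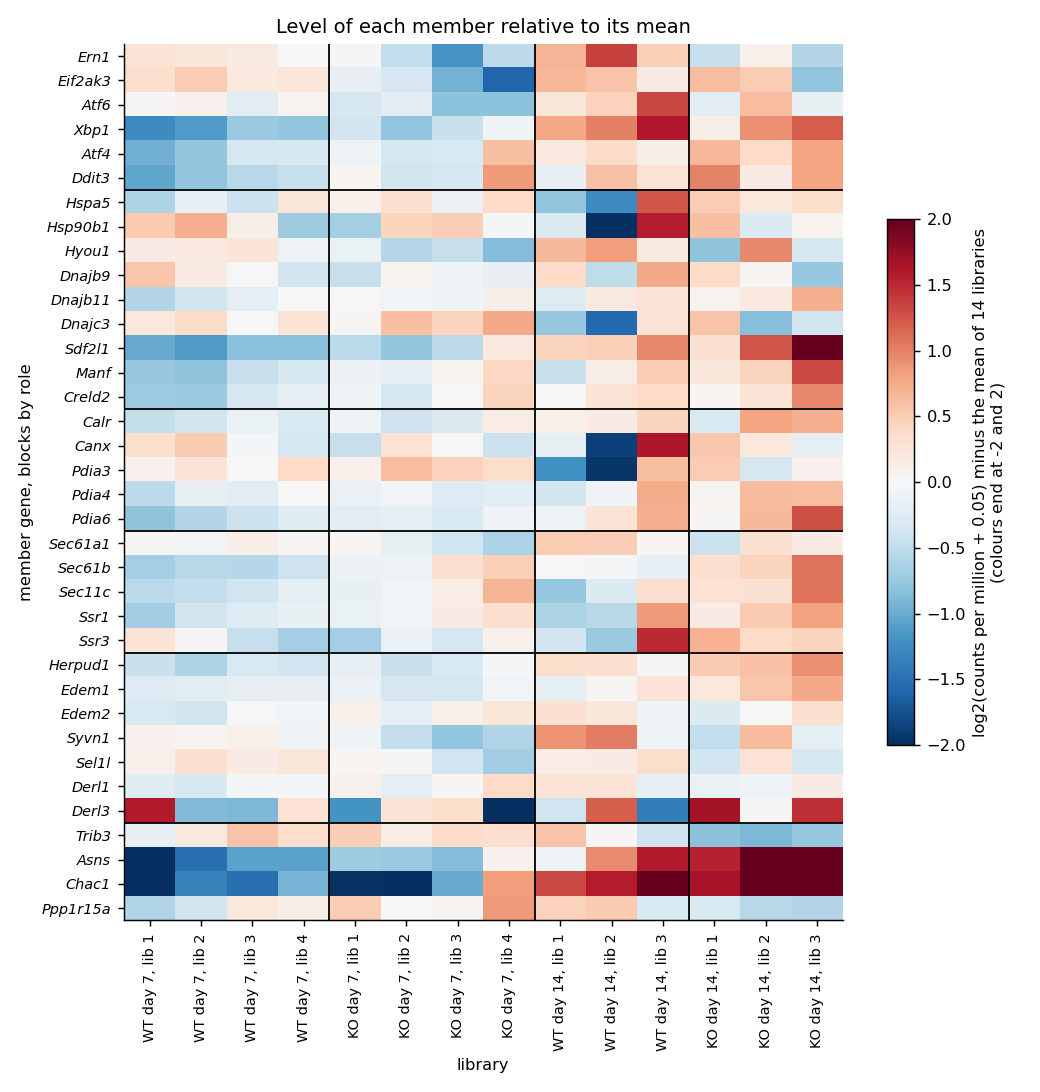
Level of each of the 36 genes (rows, in blocks by role) in each of the 14 libraries (columns), as log2(CPM + 0.05) minus the mean of the gene over the libraries; colours end at -2 and 2. Asns, Chac1, Xbp1 and Sdf2l1 are low at day 7 and high at day 14, and Hspa5, Hsp90b1, Canx and Pdia3 are high in wild-type library 3 of day 14 and low in the other 2 of that group.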

How the data were processed

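RNA was sequenced from 14 libraries in 4 groups. Per the submitters' processing notes, the authors aligned reads with GSNAP to GRCm38, while for the counting tool, its annotation and the use of strand the sources used here say nothing. Each deposited table gives, per the file headers, a raw count per gene, the width in bases behind it and an RPKM value. The deposited RPKM were used only to compare levels between genes, and the deposited width is other than a full transcript length, being nearly always a coding length.

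Counts were filtered with filterByExpr (11591 of 22598 genes kept), scaled by TMM and fitted in edgeR 4.0.16 (R 4.3.3, limma 3.58.1) with the quasi-likelihood test on all 14 libraries, which share 1 estimate of the spread (common biological coefficient of variation 0.354). Tests covered the genotypes at either day, day 14 against day 7 in each genotype, and their interaction, with Benjamini-Hochberg adjustment over all tested genes. Scripts were tested on simulated data. Depth was 23326248 to 35803197 counts a library, so counting error is small except for genes with few reads.

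Alternatives were DESeq2 1.42.0, other size factors, no filter beyond 1 read, only the compared libraries, a replicate block, a term for the set of run identifiers in the names of the deposited tables, a spline offset for coding GC content and length (5 degrees of freedom, 11550 genes), and leaving out each library. Leaving out both outlying libraries together was added after seeing the data. Values per library are printed for the sensors, Xbp1, Atf4, Ddit3, Hspa5, every called member and the most abundant gene of each role; from each further pathway list up to 4 called genes with the smallest adjusted p per comparison may be named. The 36 members and the lists were chosen with earlier results of these data known. Gene models were GENCODE vM21, and promoters came from RefSeq. Python 3.11.15 was used for summaries.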

Additional observations from a re-analysis of the deposited data

Results flagged for a closer look

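Asns in knockout library 4 of day 7 stood at 36.1 CPM, while the other 3 libraries of its group lay between 18.7 and 20.9 CPM. Its gap to the nearest library was a larger share of the group's range than Dixon's test allows at the 95% level. This was 1 of 72 such groups of 4 libraries tested over the members, and chance alone marks about 1 in 20. The cause was not tested.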

How the results depend on the processing

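Counts are of the 36 members unless all genes are named. DESeq2 called 1 member at day 7 (512 of all genes against 11) and 2 at day 14 (993 against 165), and 163 genes in the interaction against 10. With only the compared libraries, 0 genes were called at day 14. The run-set term left 1 member called in the knockout over time (370 genes), 79 genes at day 14 and 1 in the interaction. The GC and length offset gave 1 member at day 14 (541 genes), 78 genes in the interaction, 16 members in wild type over time (3842 genes) and 14 in the knockout (3356 genes). Leaving out both outlying libraries gave 12 members at day 14 (2998 genes), 2 in the interaction (327), 12 in wild type over time (3799) and 14 in the knockout. Leaving out each library in turn gave 0 members at day 7 (8 to 14 genes), 0 to 12 at day 14 (42 to 2640), 0 to 3 in the interaction (1 to 380), 5 to 12 in wild type over time (1723 to 3539) and 7 to 13 in the knockout (1061 to 2420). Hspa5 in wild type over time ranged from -0.792 without library 3 of day 14 to 0.768 without library 2, and was -0.792 with both outlying libraries out. The causes were not tested.

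With the replicate number as a block, 10 members were called in wild type over time and 10 in the knockout (9 higher, 1 lower, Ppp1r15a losing its call), and 0 in the other 3 comparisons. The numbers share no stated source, and same-numbered libraries of a day correlated at -0.116 to 0.417. Of 3921 member values under alternatives 3801 kept their side of the threshold, 81 passed it, 37 lost it and 2 reversed. A value counted as reversed only where its sign changed and either fit called the gene. Sign changes without a call in either fit are among the 3801. Asns, Chac1, Herpud1, Sdf2l1 and Xbp1 in wild type and Asns in the knockout kept their call over time in all 22 alternatives. Chac1 at day 7, Derl3 and Dnajb9 are limited by few reads.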

Other observations

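The arginine transporter gene Slc7a1, an integrated stress response gene, was 1 of the 155 tested further pathway genes called between genotypes at day 14, beside 0.845% of all genes called higher. No other one was called then, and none was called at day 7 (27 higher and 17 lower at an unadjusted p under 0.05). It was higher in the knockout by 1.18 ± 0.24 (edgeR's quasi-likelihood test, adjusted p = 0.0262), with means of 68.2 CPM in the knockout and 30.1 CPM in wild type (n = 3 each). With only the compared libraries 0 genes were called at day 14.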
